A study of Mus musculus with 60 samples.

Results

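The core NRF2 pathway genes described here are 9 genes chosen by symbol out of the 54532 genes in the table, Nfe2l2 and Keap1, which form the switch of the pathway, and the targets Gclc, Gclm, Slc7a11, Gsr, Txnrd1, Srxn1 and Nqo1. Each was found as 1 row and is protein-coding. Their positions and strands on GRCm38 are Nfe2l2 (chr2:75675513-75704641, minus), Keap1 (chr9:21229730-21239361, minus), Gclc (chr9:77754535-77794485, plus), Gclm (chr3:122245557-122270732, plus), Slc7a11 (chr3:49892526-50443614, minus), Gsr (chr8:33652523-33698163, plus), Txnrd1 (chr10:82833951-82897712, plus), Srxn1 (chr2:152105516-152111376, plus) and Nqo1 (chr8:107388225-107403206, minus). Their RNA was measured in 6 tissues of 10 male C57BL/6 wild-type mice made obese by a high-fat diet, with 60 libraries in all. SFN-treated mice (numbered 6 to 10) received daily intraperitoneal sulforaphane (SFN), an isothiocyanate of cruciferous vegetables, at 5 mg/kg for 1 week, and vehicle-treated mice (numbered 1 to 5) received the vehicle alone. Mice of both groups had started the diet at 12 weeks of age, stayed on it for 16 to 20 weeks and are labelled as about 28 weeks old at treatment, an age that fits only the shortest diet. The tissues were skeletal muscle (SkM), liver (Liv), epididymal white fat (eWAT), inguinal white fat (iWAT), brown fat (BAT) and hypothalamus (Hyp), with 5 mice per group in each. No knockout mice are analysed here, so the data hold no control for whether NRF2 itself was needed.

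NRF2, the product of Nfe2l2, is a transcription factor that cells make constantly and normally destroy at once. KEAP1 holds NRF2 in the cytosol and hands it to a ubiquitin ligase. Electrophiles such as SFN react with cysteines of KEAP1, after which NRF2 escapes, enters the nucleus and binds antioxidant response elements (AREs) together with small MAF proteins. Its best known targets make and recycle glutathione, keep thioredoxin and peroxiredoxins reduced, and reduce quinones. Since NRF2 is controlled mainly through its protein, the RNA of its targets is the usual readout of the pathway.

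The ARE core is shown because it is the sequence NRF2 is known to read. Promoters from RefSeq (build GRCm38.p6, 250 bases before to 50 after a start) were given for 7 of the 9 genes, and both strands were searched for TGACNNNGC, where N is any base. Of all 32851 promoters in that table, 12.4% held it. A match was found for 4 genes, Nfe2l2, Gclm, Txnrd1 (in 1 of its 3 promoters) and Srxn1, and none in those of Keap1, Nqo1 and Slc7a11. The motif TGACTCAGC, a special case of the first, was in none of the 9 promoters and in 0.454% of all. Each match is printed 5′ to 3′ along its gene with 8 bases on either side and the motif in capitals.
Nfe2l2 (chr2:75704887-75704911, minus strand): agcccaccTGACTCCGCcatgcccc
Gclm (chr3:122245415-122245439, plus strand): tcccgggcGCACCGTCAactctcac
Txnrd1 (chr10:82859106-82859130, plus strand): ggatttttGCTTTGTCAttctgaca
Srxn1 (chr2:152105544-152105568, plus strand): agtgggcaGCTAGGTCAgagtgaga
The centre of the match lies 236 bases before the start in Nfe2l2, 130 before it in Gclm and 88 before it in Txnrd1. In Srxn1 it lies 32 bases after the start, in the transcribed part. The Nfe2l2 match reads along the gene, and the other 3 lie on the opposite strand. With 12.4% of promoters holding these letters, a match describes the sequence only.

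Libraries held 15014550 to 25629640 reads (median 17224428). Levels are FPKM, fragments per kilobase of gene scaled to library size, as deposited, and tests used log2(FPKM + 0.1) with limma over every gene with a mean of at least 0.5 FPKM in the tissue. Adjusted p-values run over all of those genes, and a gene passed under 0.05. Each tissue had high sums of the markers of its label (5 genes each). Hepatocyte genes summed to 42244 to 67471 FPKM in liver and at most 594 FPKM elsewhere. Muscle fibre genes summed to 72357 to 92987 FPKM in muscle and at most 3033 FPKM elsewhere. Brown adipocyte genes summed to 6127 to 10630 FPKM in BAT and at most 1239 FPKM elsewhere. Hypothalamic neuron genes summed to 490.3 to 763 FPKM in hypothalamus and at most 1.75 FPKM elsewhere. Adipocyte genes summed to 3688 to 6494 FPKM in iWAT, 484 to 3346 FPKM in eWAT and 1444 to 1892 FPKM in BAT, against at most 131 FPKM elsewhere. In eWAT 6 macrophage genes summed to 2463 to 8282 FPKM. Some libraries stood apart. In iWAT, 6 lymphocyte and lymph node genes summed to 205, 132 and 201 FPKM in SFN-treated mice 6, 7 and 8 and to 249.6 FPKM in vehicle-treated mouse 2, with 1.30 to 7.55 FPKM in the other 6 libraries. In BAT, muscle fibre genes reached 2612 FPKM in SFN-treated mouse 7 and 3033 FPKM in vehicle-treated mouse 3. The same 5 genes summed to 1329 FPKM in iWAT of vehicle-treated mouse 4, with 15.8 to 249.8 FPKM in the other 9 iWAT libraries. In bulk tissue, fewer cells of a type and less RNA per cell cannot be told apart. Of the housekeeping genes, Rplp0, a ribosomal protein, was higher in SFN-treated liver (428 ± 53.4 FPKM in SFN-treated mice and 292 ± 22.1 FPKM in vehicle-treated mice; log2 fold change 0.55, standard error 0.0964, limma adjusted p = 0.00869), while Tbp and Actb did not pass in any tissue and neither did Rplp0 elsewhere.

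In vehicle-treated mice each core gene had its own order over the tissues. By mean FPKM, liver or muscle was at the top for 6 of the 8 genes that could be tested. Values here are FPKM means ± SD (n = 5), and neighbours in the order were compared by limma over all 60 libraries. That fit uses 1 estimate of each gene's spread over all tissues. It can be too small for a tissue that spreads widely, as eWAT did for several targets. Of 40 neighbouring pairs, 26 passed. Between tissues most genes differ, so the share of all 16293 genes that passed is given with each pair at its first use. Nfe2l2 was 42.1 ± 4.41 in liver, 32.2 ± 3.81 in eWAT, 18.9 ± 0.215 in BAT, 15.6 ± 1.49 in iWAT, 13.3 ± 0.937 in muscle and 3.39 ± 0.355 in hypothalamus, a span of 12.4-fold. All 5 neighbouring pairs differed, although the ranges of iWAT and muscle overlapped (adjusted p = 0.0424). Over all genes, 76.4% passed between liver and eWAT, 70.0% between eWAT and BAT, 58.3% between iWAT and BAT, 77.1% between muscle and iWAT and 80.7% between muscle and hypothalamus.

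Keap1, the repressor, spanned only 2.67-fold and was highest in muscle. It was 27.1 ± 1.81 in muscle, 17.0 ± 0.757 in liver, 12.4 ± 1.02 in BAT, 11.9 ± 0.269 in hypothalamus, 10.4 ± 0.337 in eWAT and 10.1 ± 0.843 in iWAT. BAT and hypothalamus did not pass as different (adjusted p = 0.349), nor did eWAT and iWAT (adjusted p = 0.488), and the other 3 pairs passed. The shares over all genes were 78.7% for muscle and liver, 72.3% for liver and BAT, 79.1% for BAT and hypothalamus, 79.6% for eWAT and hypothalamus and 54.9% for eWAT and iWAT. The mean of Nfe2l2 was above that of Keap1 in liver, BAT and both white fats, and below it in muscle and hypothalamus.

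The subunits of glutamate-cysteine ligase, which starts glutathione synthesis, were by far highest in liver. Gclc, the catalytic subunit, averaged 191 ± 54.4 in liver, against 14.1 ± 0.514 in hypothalamus, 10.8 ± 4.00 in eWAT, 7.26 ± 1.31 in muscle, 6.15 ± 0.772 in iWAT and 6.08 ± 0.334 in BAT, a span of 31.4-fold. Muscle and iWAT, and iWAT and BAT, did not pass as different. Hypothalamus and eWAT, and eWAT and muscle, passed although their ranges overlapped. Liver and hypothalamus differed in 83.5% of all genes and muscle and eWAT in 78.7%. Gclm, the modifier subunit, averaged 57.2 ± 3.09 in liver, 16.2 ± 9.06 in eWAT, 8.06 ± 0.293 in hypothalamus, 5.50 ± 0.780 in iWAT, 4.63 ± 0.241 in BAT and 4.46 ± 0.834 in muscle. Its lowest 3 tissues could not be ordered, with adjusted p = 0.293 for iWAT and BAT and 0.765 for BAT and muscle. Its levels in eWAT and hypothalamus passed as different although their ranges overlapped. Over all genes 78.7% passed between iWAT and hypothalamus and 72.2% between muscle and BAT. On this per-length scale the mean of Gclc exceeded that of Gclm in liver, hypothalamus, muscle, iWAT and BAT, and the reverse held in eWAT. These means were not compared by a test.

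Slc7a11, which encodes the transporter subunit that brings in cystine for glutathione, was low outside the hypothalamus. It was at 2.36 ± 0.267 in hypothalamus and 0.330 ± 0.283 in eWAT of vehicle-treated mice, and in eWAT it ranged over 0.0827 to 0.312 FPKM in SFN-treated mice, against 0.0674 to 0.797 FPKM in vehicle-treated mice. In muscle, liver and BAT each library held 0 to 5 reads of it. In iWAT it ranged over 0.0250 to 0.453 FPKM in SFN-treated and 0.00659 to 0.362 FPKM in vehicle-treated mice, and its highest 4 libraries were those of mice 2, 6, 7 and 8 with lymph node genes. The filter on low values left it for a test in hypothalamus only, so the other 5 tissues have 8 testable members and hypothalamus has 9.

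Gsr, which recycles oxidised glutathione, averaged 40.1 ± 2.93 in liver, 25.9 ± 11.2 in eWAT, 17.7 ± 1.41 in muscle, 12.5 ± 1.08 in iWAT, 10.4 ± 0.497 in BAT and 8.18 ± 0.305 in hypothalamus, and only iWAT and BAT were not told apart (adjusted p = 0.156). Txnrd1, the cytosolic thioredoxin reductase, was 32.2 ± 13.4 in eWAT, 31.5 ± 1.99 in liver, 22.9 ± 0.668 in muscle, 14.5 ± 1.29 in BAT, 10.9 ± 1.03 in iWAT and 10.2 ± 0.424 in hypothalamus. Neither its top pair nor its bottom pair passed (adjusted p = 0.682 and 0.614). On the log2 scale of the test, the difference of eWAT from liver was -0.07 for Txnrd1. Srxn1, sulfiredoxin, which repairs overoxidised peroxiredoxins, was 67.2 ± 36.9 in eWAT, 37.9 ± 5.58 in liver, 26.5 ± 2.41 in hypothalamus, 23.7 ± 2.39 in BAT, 16.0 ± 2.87 in muscle and 12.8 ± 2.40 in iWAT. For Srxn1 only eWAT against liver and BAT against muscle passed. The ranges of eWAT (22.3 to 116) and liver (32.1 to 46.3) overlapped. Nqo1, the quinone reductase, was the target highest in muscle, with 24.2 ± 5.59 in muscle, 8.43 ± 2.78 in liver, 3.96 ± 2.04 in eWAT, 2.61 ± 0.368 in iWAT, 2.33 ± 0.323 in hypothalamus and 1.18 ± 0.573 in BAT, a span of 20.4-fold. Its levels in eWAT and iWAT, and in iWAT and hypothalamus, were not told apart. Ranges overlapped although the pair passed for liver and eWAT in Nqo1 and Gsr. They also did for hypothalamus and BAT in Nqo1 and for eWAT and muscle in Gsr. Relative to their level, Gclc, Gclm, Gsr, Txnrd1 and Srxn1 spread most among vehicle-treated mice in eWAT, where the highest mouse had 2.52 times (Gclc) to 5.20 times (Srxn1) the FPKM of the lowest.

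**Figure D1:**
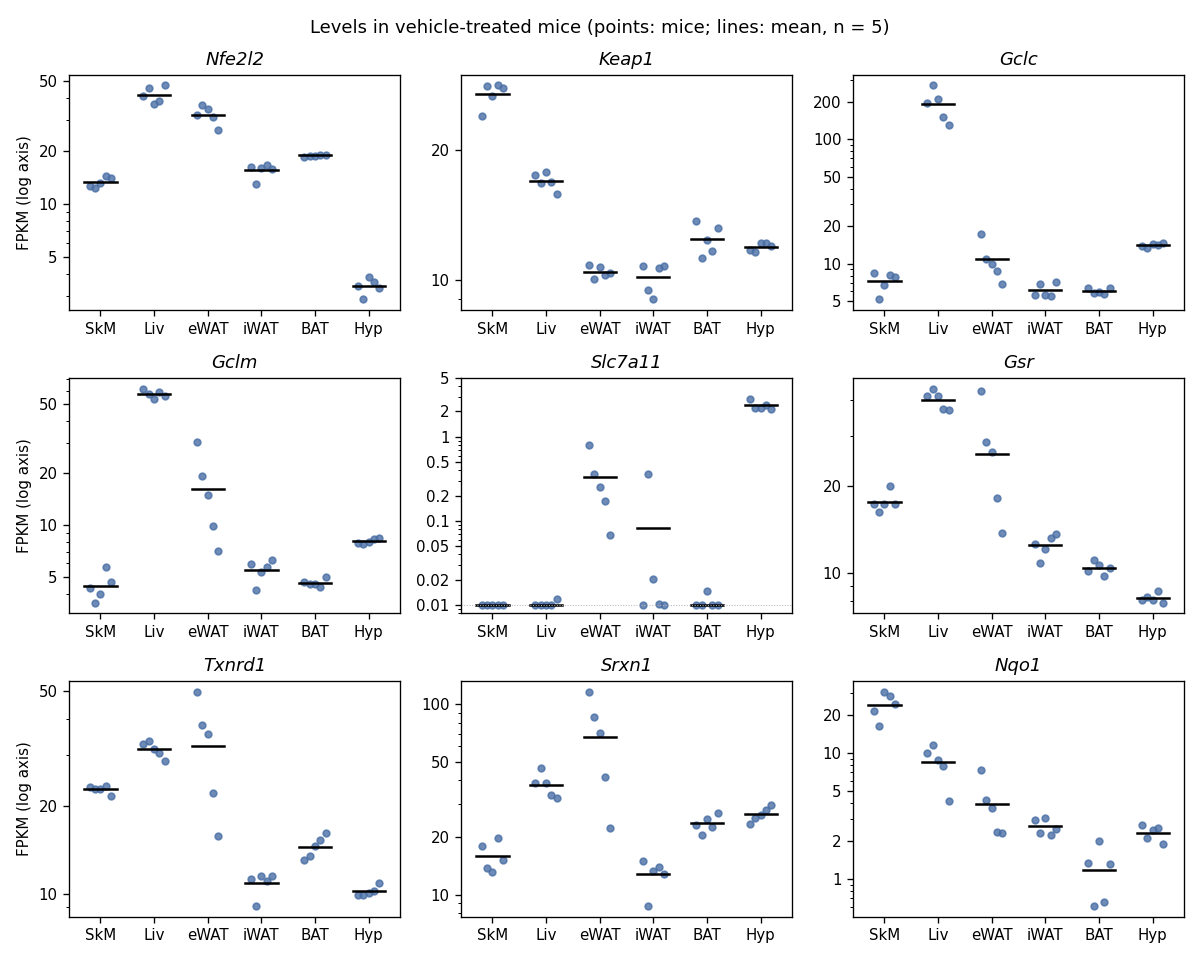
FPKM on a log axis of the 9 core NRF2 pathway genes in vehicle-treated mice, with 1 point per mouse and a line at the mean of 5 mice in each of the 6 tissues; values of Slc7a11 under 0.01 FPKM are drawn at 0.01. Gclc and Gclm stand highest in liver, Nqo1 and Keap1 in muscle, Slc7a11 in hypothalamus, and Gclc, Gclm, Gsr, Txnrd1 and Srxn1 spread most in eWAT.

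These comparisons ask how 1 week of SFN changed the RNA of the pathway in each tissue. In skeletal muscle 8 of 8 testable members had positive log2 fold changes, with a median log2 fold change of 0.35, against -0.02 over all 12800 genes tested. None of the 8 passed in limma, where 0% of all genes passed. At an unadjusted p under 0.05 limma gave 5 of the 8, all higher, and 719 of all genes higher and 1026 lower. On the reads recovered from the FPKM, edgeR called 0 of the 8 (and 3 of all genes) and DESeq2 called 2, Gclm and Txnrd1, with 1.46% of all genes. The study itself named Gclm, Srxn1, Gsr, Txnrd1 and Hmox1 from these muscle libraries, so their direction here is not independent evidence.

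The SFN-treated mice were not alike in muscle. Values are given in the order of mice 6 to 10 for SFN and of mice 1 to 5 for vehicle. Txnrd1 was at 26.2, 41.3, 41.8, 22.3 and 34.4 FPKM in SFN-treated mice, against 23.4, 23.0, 22.9, 23.5 and 21.8 FPKM in vehicle-treated mice. Mice 7, 8 and 10 stood clear of all 5 vehicle-treated mice, mouse 6 lay slightly above them and mouse 9 within them (log2 fold change 0.49, standard error 0.161, limma adjusted p = 0.265). DESeq2 gave it an adjusted p of 0.0497, and the exact permutation test p = 0.0397. Srxn1 was at 19.0, 38.6, 59.99, 13.9 and 23.6 FPKM in SFN-treated mice, against 17.9, 13.8, 13.1, 19.9 and 15.2 FPKM in vehicle-treated mice. Its highest values were those of mice 8, 7 and 10, while mice 6 and 9 lay within the vehicle range (log2 fold change 0.77, standard error 0.339, limma adjusted p = 0.355). It had the largest fold change of the 8, and the largest standard error. Gsr was at 18.0, 28.7, 26.1, 15.6 and 22.3 FPKM in SFN-treated mice, against 17.4, 16.2, 17.3, 20.0 and 17.4 FPKM in vehicle-treated mice. Again mice 7, 8 and 10 were above every vehicle-treated mouse and the other 2 were not (log2 fold change 0.29, standard error 0.152, limma adjusted p = 0.430).

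The glutamate-cysteine ligase subunits had the same split. Gclm, the modifier subunit, was at 5.64, 7.90, 7.90, 5.30 and 6.99 FPKM in SFN-treated mice, against 4.30, 3.55, 4.00, 5.75 and 4.71 FPKM in vehicle-treated mice. Only vehicle-treated mouse 4 reached into the SFN range (log2 fold change 0.59, standard error 0.150, limma adjusted p = 0.228). Its exact permutation p was 0.0238 and its DESeq2 adjusted p 0.0173. Gclc, the catalytic subunit, was at 6.97, 9.86, 11.9, 7.36 and 10.9 FPKM in SFN-treated mice, against 8.38, 5.18, 6.82, 8.08 and 7.87 FPKM in vehicle-treated mice. Mice 7, 8 and 10 were above the vehicle range and mice 6 and 9 inside it (log2 fold change 0.36, standard error 0.176, limma adjusted p = 0.403). Nfe2l2, the regulator, followed with 11.7, 19.2, 19.2, 13.6 and 16.2 FPKM in SFN-treated mice, against 12.6, 12.3, 13.1, 14.5 and 14.1 FPKM in vehicle-treated mice. Mouse 6 was here below all vehicle-treated mice (log2 fold change 0.23, standard error 0.133, limma adjusted p = 0.461).

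Nqo1 and Keap1 did not share the split. Nqo1 was at 31.4, 25.9, 33.9, 27.7 and 32.3 FPKM in SFN-treated mice, against 21.4, 16.5, 30.5, 28.4 and 24.4 FPKM in vehicle-treated mice. Mice 6, 8 and 10 were above all vehicle-treated mice and mouse 7 was the lowest SFN-treated mouse (log2 fold change 0.34, standard error 0.154, limma adjusted p = 0.364). Keap1 was at 28.0, 32.2, 30.2, 29.9 and 30.3 FPKM in SFN-treated mice, against 24.0, 28.3, 26.8, 28.3 and 27.9 FPKM in vehicle-treated mice. Mouse 6 lay among the vehicle-treated mice and the other 4 above them (log2 fold change 0.16, standard error 0.0622, limma adjusted p = 0.325). No core gene separated the groups completely in muscle, as 2.71% of all genes did. Over the 10 muscle libraries the 5 genes Gclc, Gclm, Txnrd1, Srxn1 and Gsr had pairwise Pearson r of 0.79 to 0.94 (10 pairs). This is a description over libraries of both groups, and treatment was not taken off. Their median r was 0.86 in muscle, 0.84 in liver and 0.94 in eWAT, but 0.09 in iWAT (-0.72 to 0.84), 0.40 in BAT (-0.38 to 0.75) and 0.32 in hypothalamus (-0.35 to 0.75). Summed fibroblast markers (5 genes) were 44.3 to 90.2 FPKM in SFN-treated mice and 75.0 to 118 FPKM in vehicle-treated mice in muscle, and their part in these values was not tested.

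**Figure D2:**
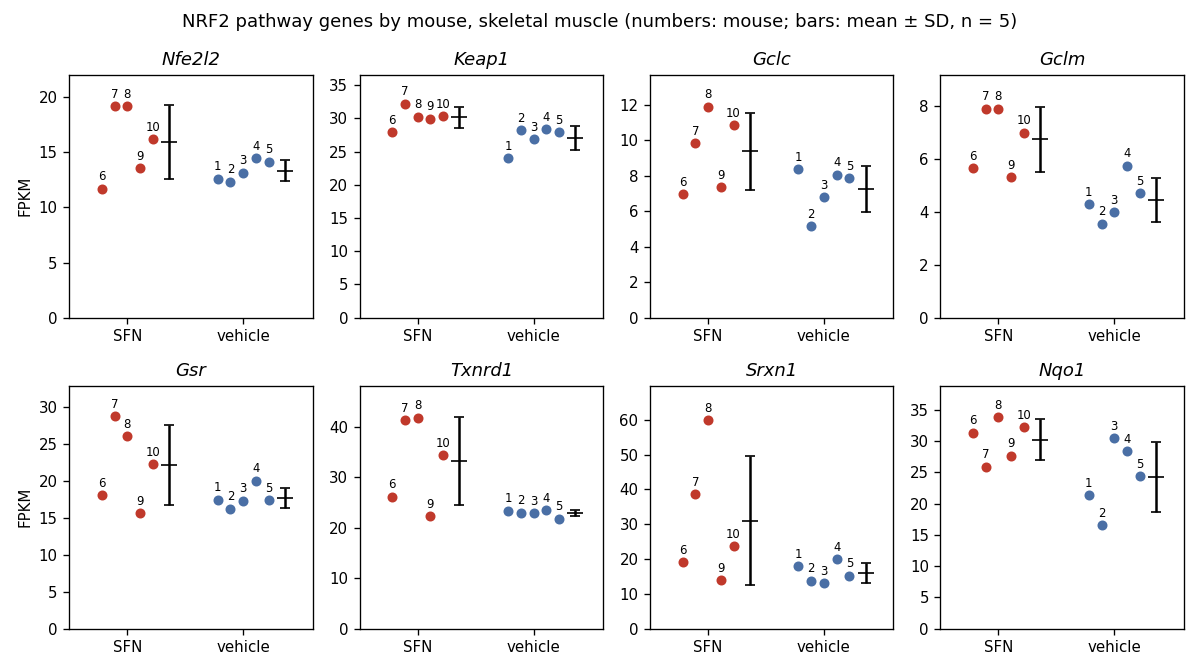
FPKM of 8 core NRF2 pathway genes in skeletal muscle, SFN-treated mice left (red) and vehicle-treated mice right (blue), with 1 numbered point per mouse and bars for the mean ± SD of 5 mice. SFN-treated mice 7, 8 and 10 stand above the vehicle-treated mice for Txnrd1, Srxn1, Gsr, Gclc, Gclm and Nfe2l2, while mouse 9 lies within or near their range.

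In liver 3 of the 8 testable members passed, where 13.1% of all 13388 genes did. Nfe2l2 and Srxn1 fell (2 of 8, with 6.19% of all genes lower) and Keap1 rose (1 of 8, with 6.89% higher). The median log2 fold change of the 8 was -0.25, against -0.02 over all genes, and 7 of 8 were negative. EdgeR and DESeq2 called the same 3 genes.

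Nfe2l2 was at 30.9, 24.8, 22.9, 30.9 and 26.2 FPKM in livers of SFN-treated mice, against 41.2, 45.8, 37.1, 38.9 and 47.4 FPKM in vehicle-treated mice. The groups did not overlap (log2 fold change -0.64, standard error 0.102, limma adjusted p = 0.00641), and the exact permutation p of 0.00794 was the smallest that 5 against 5 mice allow. Without any 1 mouse its limma adjusted p stayed between 0.00406 and 0.0202. Keap1, whose product destroys NRF2, was at 19.1, 20.3, 18.5, 19.6 and 19.8 FPKM in SFN-treated mice, against 17.5, 16.8, 17.8, 16.9 and 15.8 FPKM in vehicle-treated mice. These groups did not overlap either, but the change was small (log2 fold change 0.20, standard error 0.0511, limma adjusted p = 0.0313). It lost the call without mouse 2, 4, 5, 7 or 10, with adjusted p up to 0.0726. With Nfe2l2 and Keap1, 2 of the 8 members had no overlap, and 12.1% of all genes had none.

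Srxn1 was at 31.5, 24.6, 26.2, 32.9 and 24.4 FPKM in livers of SFN-treated mice, against 38.8, 46.3, 38.5, 33.6 and 32.1 FPKM in vehicle-treated mice. Mice 7, 8 and 10, the mice with the highest muscle values, were the lowest, and mouse 9 overlapped the vehicle range (log2 fold change -0.44, standard error 0.119, limma adjusted p = 0.0369). The call was lost without mouse 1, 2, 3, 7, 8 or 10 (adjusted p up to 0.0836) and in 1 fit over all 60 libraries (limma adjusted p = 0.289), where 16.0% of all genes passed, and with no filter on low values (limma adjusted p = 0.0671). Txnrd1 was at 29.4, 26.5, 26.0, 31.3 and 26.3 FPKM in SFN-treated mice, against 32.9, 33.7, 31.6, 30.6 and 28.6 FPKM in vehicle-treated mice, with mice 7, 8 and 10 again lowest (log2 fold change -0.17, standard error 0.0702, limma adjusted p = 0.123). Gsr was at 39.3, 35.0, 30.6, 38.6 and 29.4 FPKM in SFN-treated mice, against 41.2, 43.8, 41.4, 37.2 and 37.0 FPKM in vehicle-treated mice, with mice 7, 8 and 10 below every vehicle-treated mouse (log2 fold change -0.22, standard error 0.0930, limma adjusted p = 0.138). Nqo1 was at 4.05, 6.20, 5.84, 6.73 and 5.80 FPKM in SFN-treated mice, against 9.93, 11.5, 8.72, 7.84 and 4.13 FPKM in vehicle-treated mice. Vehicle-treated mouse 5 alone reached the SFN values (log2 fold change -0.49, standard error 0.246, limma adjusted p = 0.207), and without it the gene passed (adjusted p = 0.0319). Nqo1 and Gclm did not have mice 7, 8 and 10 as their lowest SFN-treated mice in liver. That a number marks the same mouse in liver and muscle was taken from the sample numbers only.

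The glutathione synthesis genes did not pass there. Gclc was at 203, 128, 117, 185 and 142 FPKM in SFN-treated mice, against 196, 269, 209, 151 and 129 FPKM in vehicle-treated mice, and both groups were spread widely (log2 fold change -0.29, standard error 0.213, limma adjusted p = 0.396). Gclm was at 53.7, 52.0, 51.2, 56.7 and 57.4 FPKM in SFN-treated mice, against 61.5, 57.2, 53.3, 58.5 and 55.4 FPKM in vehicle-treated mice, a narrow range with overlap (log2 fold change -0.08, standard error 0.0576, limma adjusted p = 0.399). Beside these liver results, hepatocyte markers (5 genes, none at 0) summed to 42244 to 67196 FPKM in SFN-treated mice and 59213 to 67471 FPKM in vehicle-treated mice, fibroblast markers (5 genes, none at 0) to 34.3 to 55.7 FPKM in SFN-treated mice and 64.1 to 86.7 FPKM in vehicle-treated mice, and adipocyte markers (5 genes, of which 2 were at 0 in all SFN libraries and 3 in all vehicle libraries) to 6.26 to 20.9 FPKM in SFN-treated mice and 21.6 to 57.1 FPKM in vehicle-treated mice. Their part in the results was not tested.

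**Figure D3:**
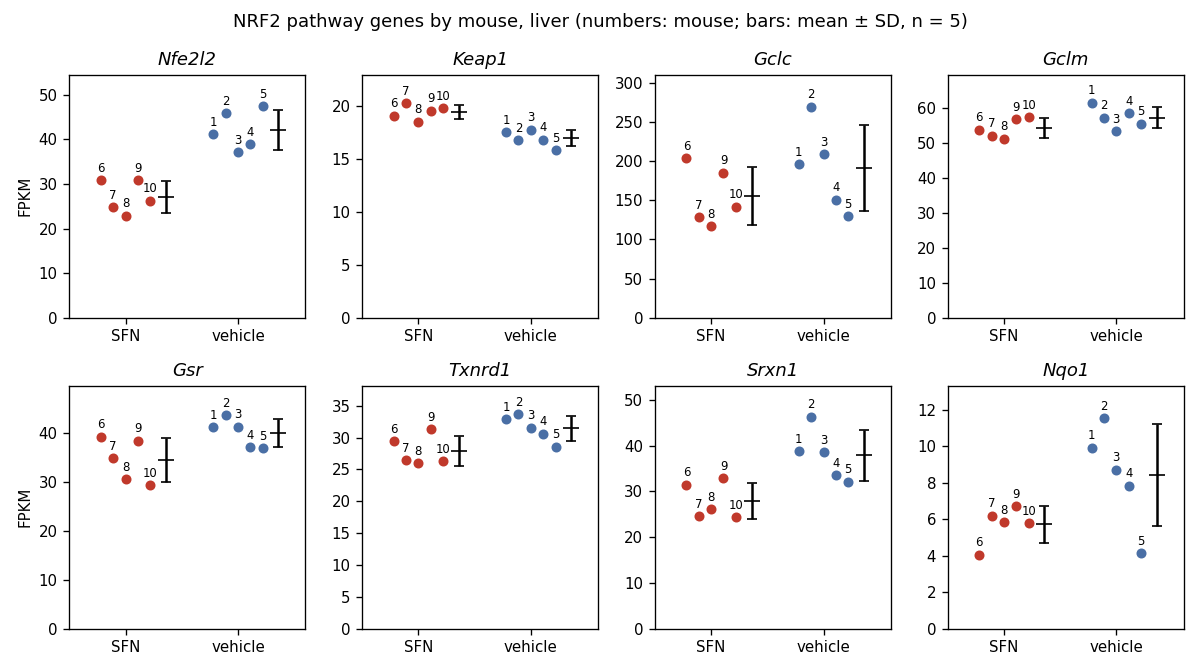
FPKM of 8 core NRF2 pathway genes in liver, SFN-treated mice left (red) and vehicle-treated mice right (blue), with 1 numbered point per mouse and bars for the mean ± SD of 5 mice. The groups do not overlap for Nfe2l2, which is lower with SFN, and Keap1, which is higher.

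A further 59 genes of the wider NRF2 pathway were listed, of which 55 could be tested in liver. In SFN-treated livers 21 of the 55 fell and 1 rose, where 13.1% of all genes passed, with a median log2 fold change of -0.30, against -0.02 over all genes. Among other regulators (11 tested), Sqstm1, the autophagy receptor that binds KEAP1 (-0.29, limma adjusted p = 0.0425), Bach1, a repressor of AREs (-0.30, limma adjusted p = 0.0238), Maff, a small MAF partner (-1.04, limma adjusted p = 0.0205), and Gsk3b, a kinase that marks NRF2 for destruction (-0.30, limma adjusted p = 0.0337), fell. Dpp3, a peptidase that competes for KEAP1, rose (0.28, limma adjusted p = 0.0248). Of 14 genes of glutathione use and export, 8 fell. They were the glutathione transferases Gsta1, Gsta2, Gsta3, Gsta4, Gstm1, Gstm3 and Gstm4 and the conjugate exporter Abcc3. Gstm1 averaged 712 ± 126 FPKM in SFN-treated mice and 1279 ± 180.3 FPKM in vehicle-treated mice (log2 fold change -0.85, standard error 0.142, limma adjusted p = 0.00709), and Gsta3 267 ± 87.4 FPKM in SFN-treated mice and 569.7 ± 48.9 FPKM in vehicle-treated mice (log2 fold change -1.14, standard error 0.187, limma adjusted p = 0.00672). The transferases have near-identical copies, so reads could be split among them. For the others the log2 fold changes were -1.16 (Gsta1), -0.88 (Gsta2), -0.74 (Gsta4), -1.02 (Gstm3), -0.51 (Gstm4) and -0.82 (Abcc3).

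Of 6 enzymes that make NADPH or share the pentose phosphate pathway with such enzymes, 3 fell. NADPH is used by glutathione and thioredoxin reductases. Me1, malic enzyme, averaged 41.0 ± 16.7 FPKM in SFN-treated mice and 117 ± 18.8 FPKM in vehicle-treated mice (log2 fold change -1.59, standard error 0.240, limma adjusted p = 0.00499), the largest fall in the list. Tkt, which makes no NADPH itself (log2 fold change -0.68), and Idh1 (-0.43) fell too. Of 15 quinone, carbonyl, epoxide and conjugation genes 6 fell, namely Cbr1 (-0.56), Cbr3 (-0.81), Aldh3a2 (-1.41), Ephx1 (-0.53), Esd (-0.36) and Abhd4 (-0.35). None of the 4 thioredoxin and peroxiredoxin genes and none of the 5 heme and iron genes passed in limma, with 2 of each list lower at an unadjusted p under 0.05. At that threshold 1944 of all 13388 genes were higher and 2108 lower. Maff, Gsta2, Gsta3, Gsta4, Gstm1, Tkt, Me1, Cbr1, Aldh3a2, Ephx1 and Esd passed without any 1 mouse, and the others of the 22 lost the call without at least 1. In the 60-library fit Esd, Sqstm1 and Bach1 lost it (limma adjusted p = 0.189, 0.0909 and 0.0795), and Sqstm1 also in edgeR (adjusted p = 0.0560). With no filter on low values Sqstm1, Gsk3b, Gsta1, Gstm3, Gstm4, Abcc3, Cbr3 and Abhd4 lost it (limma adjusted p of 0.0619 for Gstm3 to 0.0865 for Gsta1). The count was 12 to 14 without mouse 2, 3, 5, 7, 8 or 10, and 15 to 25 without any other mouse. Shares of all genes in those fits are not given, so these counts cannot be read as particular to the list.

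In eWAT the vehicle-treated mice differed widely in every target. None of the 8 testable members passed in limma, edgeR or DESeq2, where limma called 0.209% of all genes. At an unadjusted p under 0.05 limma gave 2, Gclc and Nqo1, both lower, and 1063 of all 13908 genes higher and 794 lower. The median log2 fold change of the 8 was -0.58, against 0.00 over all genes. With 1 estimate of the spread over all 60 libraries, Gclc, Gclm and Txnrd1 passed as lower (limma adjusted p = 0.0375, 0.0353 and 0.0353), and 2.58% of all 16293 genes passed in that fit. Srxn1 was at 28.1, 31.2, 56.9, 31.5 and 32.2 FPKM in SFN-treated mice, against 116, 86.0, 70.4, 41.3 and 22.3 FPKM in vehicle-treated mice. Vehicle-treated mouse 1 was highest and mouse 5 lowest of all 10 (log2 fold change -0.73, standard error 0.405, limma adjusted p = 0.461), a 5.20-fold span within the vehicle group. Txnrd1 was at 17.6, 17.6, 28.2, 20.2 and 18.6 FPKM in SFN-treated mice, against 49.6, 38.1, 35.4, 22.3 and 15.8 FPKM in vehicle-treated mice, with the same mice at the ends (log2 fold change -0.57, standard error 0.285, limma adjusted p = 0.423). Gclm was at 6.81, 7.71, 13.6, 7.85 and 9.88 FPKM in SFN-treated mice, against 30.1, 19.3, 14.9, 9.86 and 7.03 FPKM in vehicle-treated mice (log2 fold change -0.68, standard error 0.358, limma adjusted p = 0.442). Among the SFN-treated mice, mouse 8 was the highest for all 3 genes. Gclc was at 5.99, 6.08, 9.34, 6.15 and 6.78 FPKM in SFN-treated mice, against 17.4, 11.0, 10.0, 8.74 and 6.93 FPKM in vehicle-treated mice, where only mouse 8 reached the vehicle range (log2 fold change -0.60, standard error 0.223, limma adjusted p = 0.276).

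Nqo1 was at 1.84, 1.80, 2.72, 2.45 and 2.52 FPKM in eWAT of SFN-treated mice, against 7.29, 4.21, 3.65, 2.34 and 2.32 FPKM in vehicle-treated mice, with vehicle-treated mouse 1 far above the rest (log2 fold change -0.67, standard error 0.287, limma adjusted p = 0.348). Gsr was at 18.9, 19.5, 24.5, 32.2 and 28.2 FPKM in SFN-treated mice, against 43.0, 28.4, 26.3, 18.2 and 13.8 FPKM in vehicle-treated mice, and the means were close (log2 fold change 0.00, standard error 0.283, limma adjusted p = 0.998). The regulators did not share the spread. Nfe2l2 ranged over 31.3 to 40.7 FPKM in SFN-treated mice, against 26.4 to 36.5 FPKM in vehicle-treated mice, and Keap1 over 9.94 to 11.4 FPKM in SFN-treated mice, against 10.0 to 10.8 FPKM in vehicle-treated mice. Over the 10 eWAT libraries, Gclc, Gclm, Txnrd1, Srxn1 and Gsr had pairwise r of 0.60 to 0.99 with a median of 0.94, and Nfe2l2 had an r with these 5 of 0.05 (Gclc) to 0.68 (Gsr) (descriptions over libraries of the same tissue). Vehicle-treated mouse 5, the lowest vehicle-treated mouse for every target, also had the highest adipocyte marker sum (5 genes) of 3346 FPKM, against 839.9 to 1841 FPKM in the other vehicle-treated mice and 484 to 1650.3 FPKM in SFN-treated mice. Its macrophage marker sum (6 genes) was the lowest at 2463 FPKM, with 4987 to 8282 FPKM in SFN-treated and up to 5251 FPKM in vehicle-treated mice. Their part in the spread was not tested.

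**Figure D4:**
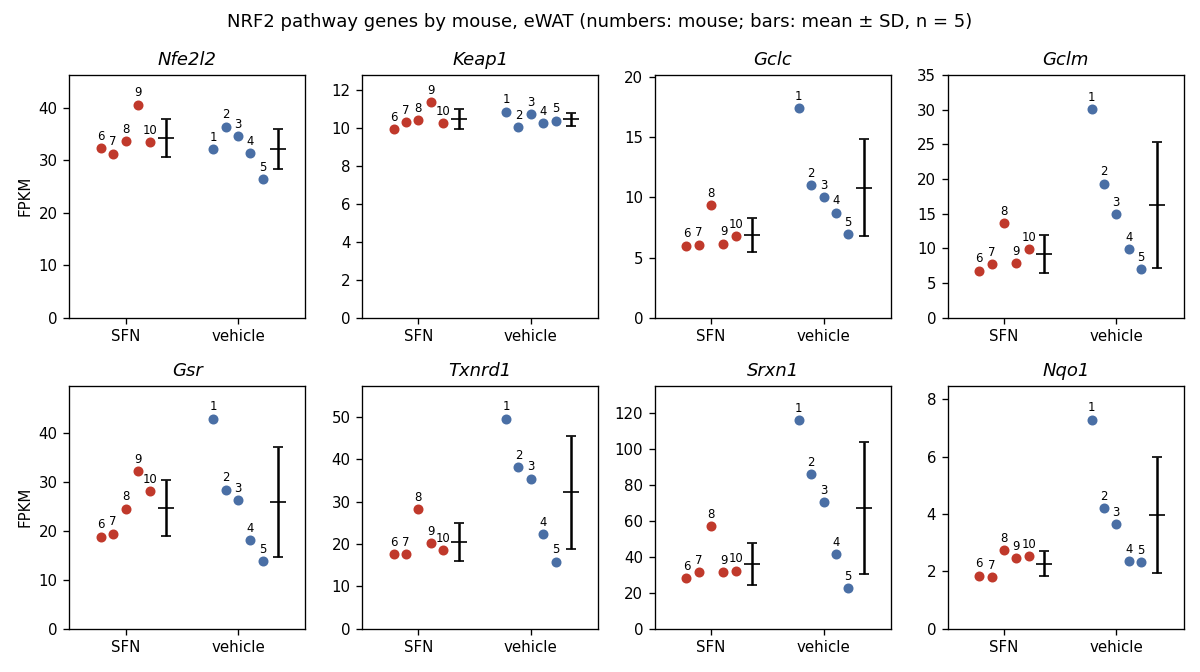
FPKM of 8 core NRF2 pathway genes in eWAT, SFN-treated mice left (red) and vehicle-treated mice right (blue), with 1 numbered point per mouse and bars for the mean ± SD of 5 mice. Vehicle-treated mouse 1 is highest for Gclc, Gclm, Gsr, Txnrd1, Srxn1 and Nqo1, while Nfe2l2 and Keap1 vary little.

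In iWAT no core gene passed in limma, edgeR or DESeq2, where limma called 0.00707% of all genes. Nqo1 was the single member at an unadjusted p under 0.05, where 379 of all 14142 genes were higher and 795 lower. It was at 1.70, 2.01, 1.72, 2.09 and 2.16 FPKM in SFN-treated mice, against 2.96, 2.30, 3.03, 2.24 and 2.51 FPKM in vehicle-treated mice. The groups did not overlap, as in 1.56% of all genes (log2 fold change -0.41, standard error 0.115, limma adjusted p = 0.393). The exact permutation p was 0.00794, again the smallest possible. Without the 4 libraries with lymph node genes (2 SFN-treated and 4 vehicle-treated mice left), the log2 fold change was -0.32 and the limma adjusted p 0.360. That subset kept vehicle-treated mouse 4, whose library held muscle transcripts. Without mouse 4 alone the log2 fold change was -0.46 (limma adjusted p = 0.764). Txnrd1 was at 9.07, 9.12, 9.14, 11.0 and 9.29 FPKM in SFN-treated mice, against 11.2, 9.09, 11.6, 11.1 and 11.5 FPKM in vehicle-treated mice, and the lymph node libraries of mice 2, 6, 7 and 8 were its 4 lowest (log2 fold change -0.19, standard error 0.0885, limma adjusted p = 0.613). The other 6 testable members had log2 fold changes of -0.26 (Srxn1) to 0.14 (Gclc and Gsr).

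In BAT 7 of 8 members had positive log2 fold changes, of at most 0.25, and none passed in limma, edgeR or DESeq2, where limma called 0.00750% of all genes. Srxn1 was at 26.7, 26.9, 33.2, 24.9 and 29.7 FPKM in SFN-treated mice, against 23.3, 20.7, 25.0, 22.6 and 27.0 FPKM in vehicle-treated mice, with mouse 8 highest (log2 fold change 0.25, standard error 0.0910, limma adjusted p = 0.230). Gsr was at 11.2, 10.8, 12.6, 10.9 and 11.8 FPKM in SFN-treated mice, against 10.2, 11.1, 10.7, 9.74 and 10.4 FPKM in vehicle-treated mice (log2 fold change 0.13, standard error 0.0583, limma adjusted p = 0.305). These 2 were the members at an unadjusted p under 0.05, where 1110 of all 13327 genes were higher and 943 lower. Both groups overlapped for every member, while 3.85% of all genes had no overlap. Without the libraries of mice 3 and 7, which held muscle transcripts, the log2 fold changes of Srxn1 and Gsr were 0.29 and 0.16. Adipocyte markers (5 genes, none at 0) summed to 1722 to 1892 FPKM in SFN-treated mice and 1444 to 1652 FPKM in vehicle-treated mice in BAT, with no overlap, and fibroblast markers (5 genes, none at 0) to 130.3 to 170.5 FPKM in SFN-treated mice and 162 to 512 FPKM in vehicle-treated mice. Their part in the BAT values was not tested. Nqo1 in BAT rested on few reads, 140 in all over the 5 vehicle-treated mice.

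In the hypothalamus none of the 9 members passed or had an unadjusted p under 0.05 in limma, where 0% of all genes passed (1011 of 15522 had an unadjusted p under 0.05), and edgeR and DESeq2 called none of the 9. Nqo1 had the largest change, at 2.40, 3.09, 2.74, 3.07 and 2.45 FPKM in SFN-treated mice, against 2.67, 2.10, 2.45, 2.55 and 1.90 FPKM in vehicle-treated mice (log2 fold change 0.23, standard error 0.107, limma adjusted p = 0.772). Slc7a11 was at 2.72, 2.31, 1.93, 2.15 and 1.89 FPKM in SFN-treated mice, against 2.81, 2.22, 2.23, 2.37 and 2.15 FPKM in vehicle-treated mice (log2 fold change -0.10, standard error 0.107, limma adjusted p = 0.875). The remaining 7 had log2 fold changes between -0.13 (Gsr) and 0.13 (Nfe2l2). No member separated the groups, and 0.979% of all genes did. Astrocyte and oligodendrocyte markers (5 genes, none at 0) summed to 499 to 584 FPKM in SFN-treated mice and 612 to 797 FPKM in vehicle-treated mice, and their part was not tested. For comparison, 4.81% of all genes had no overlap in eWAT, where no member did.

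Outside liver no gene of the wider pathway passed in limma fitted within the tissue either. The 3 smallest p-values in muscle belonged to Osgin1, an oxidative stress response gene (13.7 ± 3.69 FPKM in SFN-treated mice and 7.87 ± 1.17 FPKM in vehicle-treated mice; 0.76, limma adjusted p = 0.213), Prdx1, a peroxiredoxin (0.22, limma adjusted p = 0.228), and Hmox1, heme oxygenase 1 (4.87 to 10.8 FPKM in SFN-treated mice, against 3.16 to 5.51 FPKM in vehicle-treated mice; 0.81, limma adjusted p = 0.228). DESeq2 called these 3 in muscle. The 60-library fit called another 2 of the list there, named here after their values were seen, Btrc, part of a ubiquitin ligase (-0.34, limma adjusted p = 0.0390), and Ephx1, microsomal epoxide hydrolase (-0.36, limma adjusted p = 0.0309), with 2.20% of all genes. All 5 SFN-treated mice were above the vehicle-treated mice for Osgin1, and 2.71% of all genes in muscle had no overlap. Osgin1 was named for its small p, so this separation adds no evidence. In eWAT the 3 smallest p-values belonged to Ephx1 (-0.37, limma adjusted p = 0.0930), Tkt (-0.38, limma adjusted p = 0.119) and Txnrd3 (-0.49, limma adjusted p = 0.132), all with lower values. DESeq2 called these 3 (adjusted p = 0.00211, 0.00330 and 0.0216), with 4.27% of all genes, and the 60-library fit called Ephx1 and Txnrd3 (limma adjusted p = 0.0211 and 0.0324). That fit, which called 2.58% of all genes in eWAT, also called others of the list as lower, named here after their values were seen. They were Me1 (-1.22, limma adjusted p = 0.00109), Slc48a1 (-0.54, limma adjusted p = 0.00186), Sqstm1 (-0.48, limma adjusted p = 0.0190) and Pgd (-0.52, limma adjusted p = 0.0334). In iWAT the 3 smallest p-values belonged to Hmox1 (-0.49, limma adjusted p = 0.354), Ephx1 (-0.31, limma adjusted p = 0.403) and Ptgr1 (-0.64, limma adjusted p = 0.421). DESeq2 called Hmox1 there (adjusted p = 0.00354), with 1.20% of all genes. In BAT the 3 smallest p-values belonged to Cbr1 (0.28, limma adjusted p = 0.0682), Prdx6 (0.55, limma adjusted p = 0.0682) and Tkt (-0.73, limma adjusted p = 0.0682). Each had no overlap between the groups, as 3.85% of all genes did, and each was named for its small p. DESeq2 called these 3 (adjusted p = 0.000473, 3.83e-05 and 1.33e-05), with 4.28% of all genes, and the 60-library fit called Tkt (limma adjusted p = 0.0119), with 0.644% of all genes. That fit also called Slc3a2 in BAT as higher (0.43, limma adjusted p = 0.0162), named here after its value was seen. In hypothalamus the 3 smallest p-values belonged to Gstm1 (0.19, limma adjusted p = 0.651), Taldo1 (-0.12, limma adjusted p = 0.745) and Htatip2 (0.19, limma adjusted p = 0.750). The median log2 fold change of the list was 0.04 in muscle, -0.21 in eWAT, -0.09 in iWAT and 0.03 in BAT.

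**Figure D5:**
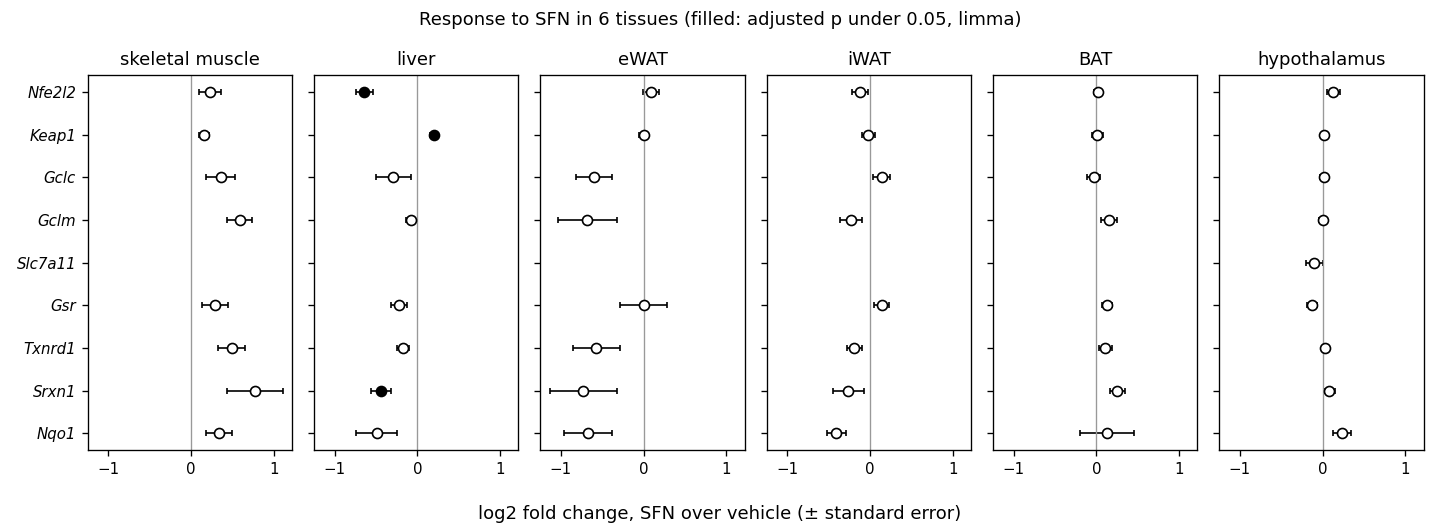
Log2 fold change of SFN over vehicle (x axis, with its standard error) for the 9 core NRF2 pathway genes (rows) in 6 tissues (panels, 5 mice per group), filled where the limma adjusted p was under 0.05. Only Nfe2l2, Keap1 and Srxn1 in liver are filled, and the points lie right of 0 in muscle and mostly left of it in liver and eWAT; a gene with no point was too low to test.

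Whether the response differed between tissues was tested directly over the 60 libraries. That fit uses 1 estimate of each gene's spread over all tissues, although the tissues differed in spread. Fitted within the tissue, the standard error of Gclm was 0.358 in eWAT and 0.0417 in hypothalamus. No F test with each tissue's own spread was run. By an F test over the 6 tissues, 5 of the 8 testable members passed, where 8.97% of 16293 genes did. They were Nfe2l2 (F = 9.87, limma adjusted p = 0.000181), Txnrd1 (F = 5.11, limma adjusted p = 0.0165), Gclm (F = 4.94, limma adjusted p = 0.0194), Srxn1 (F = 4.20, limma adjusted p = 0.0383) and Gclc (F = 4.02, limma adjusted p = 0.0453). Keap1, Nqo1 and Gsr did not pass (limma adjusted p = 0.108, 0.109 and 0.469), although Nqo1 did without mouse 5 (limma adjusted p = 0.0392). Nfe2l2 passed without any 1 mouse, at an adjusted p of at most 0.00460. Each of the other 4 lost the call without mouse 1, 3, 7 or 10, Gclm also without mouse 2 or 6, and Gclc and Srxn1 also without mouse 2, 4 or 8, with adjusted p up to 0.162 for Gclc and 0.162 for Srxn1.

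The muscle response was then set against the mean response of the other 5 tissues, where 1.26% of all genes passed. Txnrd1 (difference 0.65 on the log2 scale, standard error 0.172, limma adjusted p = 0.0410) and Gclm (difference 0.75, standard error 0.206, limma adjusted p = 0.0499) passed. Srxn1 (0.99, limma adjusted p = 0.0663) and Nfe2l2 (0.33, limma adjusted p = 0.114) did not, nor did Gclc, Nqo1, Gsr and Keap1. Srxn1 and Nfe2l2 passed without SFN-treated mouse 6 or 9. Within a mouse, muscle minus the mean of its other tissues was 0.81, 1.44, 1.37, 0.46 and 1.22 for Txnrd1 in SFN-treated mice, against 0.31, 0.41, 0.35, 0.52 and 0.48 in vehicle-treated mice (log2). Only SFN-treated mouse 9 overlapped the vehicle-treated mice. For Gclm it was -0.67, -0.33, -0.39, -0.85 and -0.57 in SFN-treated mice, against -1.60, -1.61, -1.44, -0.84 and -1.08 in vehicle-treated mice, with overlap at mice 9 and 4. The tissues of a mouse are paired by it, and with 1 difference per mouse as the replicate block neither gene passed (Txnrd1 limma adjusted p = 0.340, Gclm 0.293). Their unadjusted limma p in that fit was 0.00511 (Txnrd1) and 0.00140 (Gclm), and the share of all genes that passed in it is not given. Both calls were also lost without mouse 1, 2, 3, 7, 8 or 10, Txnrd1 without mouse 4 and Gclm without mouse 6, with adjusted p up to 0.175 for Txnrd1 and 0.168 for Gclm.

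Genes most like each member were sought among 12778 other protein-coding genes over the 60 libraries, after each tissue's mean was taken off. These are descriptions, over libraries that share mice and depth, and treatment was not taken off. Txnrd1 and Srxn1 were each other's nearest genes (r = 0.92), and Gclm came next for Txnrd1 (r = 0.90) and had Txnrd1 as its own nearest. Pooled r of this kind did not hold in every tissue, and within BAT r was 0.42 for Txnrd1 and Srxn1 and 0.38 for Gclm and Txnrd1. Gclc was nearest to Txnrd1 (r = 0.72), Srxn1 (0.72) and Gclm (0.70), so its 3 nearest were all core genes. Nqo1 was nearest to Gclm (0.62), Txnrd1 (0.61) and Spryd7 (0.61). Prdx1 was among the nearest of Gclm (0.81) and the nearest of Gsr (0.75), which was followed by Vmp1 (0.75) and Srxn1 (0.73). Mindy1 (0.81) came after these for Txnrd1, and Atp6v1h (0.88) stood between Txnrd1 and Gclm (0.87) for Srxn1. The regulators had other neighbours. Nfe2l2 was nearest to Rnf103 (0.80), Ulk1 (0.76) and Btbd19 (0.71), and Keap1 to Pias4 (0.63), Vps33a (0.61) and Rnf181 (0.60), with no core gene among them.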

How the data were processed

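RNA was extracted with Trizol from 6 tissues of 10 mice, poly A libraries were sequenced, and the reads were placed on mm10 (GRCm38) per the submitters' processing notes; the sources used here name no aligner or counter. The authors deposited FPKM of every gene in 60 libraries, and per tissue a table of only the genes under the authors' unadjusted p, with raw read counts and a normalized signal (counts divided by a size factor per library). The deposited FPKM carry 1 such factor per library, which with the gene lengths gave back whole read counts for every gene (98.6% of genes above 0 without fitting a length, within 0.01 read), and 0 of 146080 deposited counts differed. Library totals were 15014550 to 25629640 reads. Columns of the authors' own comparisons (fold changes and p-values) were not used.

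Each tissue was fitted with limma 3.58.1 (R 4.3.3) on log2(FPKM + 0.1), keeping a gene where its 10 libraries averaged 0.5 FPKM or more; p-values were Benjamini-Hochberg adjusted over every gene kept, with calls under 0.05. Fold changes on this scale understate the change of low genes. Tissue pairs, the difference of muscle from the other tissues and the F test used 1 fit of 60 libraries. Exact permutation tests over mice were two-sided. Alternatives were a pseudocount of 1, no filter, a minimum of 2 FPKM, TMM scaling, the 60-library fit, edgeR 4.0.16 and DESeq2 1.42.0 on the recovered counts, and leaving out each mouse. Leaving out 4 iWAT and 2 BAT libraries was added after seeing the data. The scripts were tested on simulated data. Members, gene lists and markers were chosen with earlier results of these data known. Members were named in full, and of the wider list those that passed and otherwise the 3 smallest p-values per tissue. The pairing of tissues by mouse was taken from the sample numbers. Deviations from group means had a median correlation of 0.0282 over 150 pairs of libraries of the same mouse (-0.426 to 0.352). Between different mice of the same treatment the median was -0.00622, so these correlations do not show the pairing.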

Additional observations from a re-analysis of the deposited data

Results flagged for a closer look

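Over 99 groups of 5 mice tested for a sample far from the others, 7 were found, and chance gives about 1 in 20. In eWAT, SFN-treated mouse 8 had 9.34 FPKM of Gclc (the others 5.99 to 6.78), 28.2 FPKM of Txnrd1 (17.6 to 20.2) and 56.9 FPKM of Srxn1 (28.1 to 32.2), and SFN-treated mouse 9 had 40.7 FPKM of Nfe2l2 (31.3 to 33.7). In iWAT, SFN-treated mouse 9 had 11.0 FPKM of Txnrd1 (9.07 to 9.29). Vehicle-treated mouse 2, whose iWAT library held lymph node transcripts, had 9.09 FPKM of Txnrd1 (11.1 to 11.6) and 12.9 FPKM of Nfe2l2 (15.9 to 16.6).

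The response to SFN differed between tissues by limma's F test for Nfe2l2 (F = 9.87), Txnrd1 (5.11), Gclm (4.94), Srxn1 (4.20) and Gclc (4.02), as it did for 8.97% of all genes, and all but Nfe2l2 lost the call without at least 1 mouse. The test used 1 estimate of each gene's spread over all tissues. The muscle response exceeded the mean of the other 5 tissues by 0.75 for Gclm and 0.65 for Txnrd1 on the log2 scale, where 1.26% of all genes passed. Neither passed with 1 difference per mouse (limma adjusted p = 0.293 and 0.340), and each lost the call without any 1 of 7 mice.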

How the results depend on the processing

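Of 1481 alternative values for 86 gene and tissue pairs, 1363 kept their direction and side of the threshold, 99 lost the call, 19 gained it and none reversed a call. Among values that passed no test, 36 changed sign, in 9 pairs. In muscle DESeq2 called 2 core genes, against 0, and for the wider list DESeq2 called 3 and the 60-library fit 2, against 0. In liver, leaving out 1 mouse gave 1 to 3 core genes (3 with all mice) and 12 to 25 of the wider list (22), which was 14 with no filter. Shares of all genes are not given for the fits without 1 mouse, so those counts cannot be read as particular to either list. In eWAT the 60-library fit called 3 core genes, and both it and DESeq2 called 6 of the wider list, against 0. DESeq2 called 1 of the wider list in iWAT and 8 in BAT, where the 60-library fit called 2, against 0. The cause was not tested. Srxn1 in liver had an adjusted p of 0.289 in the 60-library fit (limma). Over all genes, the 60-library fit and DESeq2 called 358 and 187 in muscle (0 in the tissue's own fit), 421 and 594 in eWAT (29), 161 and 169 in iWAT (1), and 105 and 570 in BAT (1). EdgeR called 3 in muscle and 10 in BAT, DESeq2 11 and the 60-library fit 1 in hypothalamus (0), the fit with no filter 1116 in liver (1751), 4 in eWAT, 4 in iWAT and 2 in BAT, and the 60-library fit 2610 in liver.

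With the mouse as a replicate block, the muscle difference called 2 core genes, the F test 5 and neighbouring tissues 26, the same counts as with no block, whereas 1 difference per mouse called 0 for the muscle difference. A pseudocount of 1 called 1 for the muscle difference. Leaving out 1 mouse gave 0 to 4 for the muscle difference, 1 to 6 for the F test and 19 to 27 for neighbouring tissues. Shares of all genes are not given for these alternative fits, so their counts cannot be read as particular to the core genes. Each group holds 5 mice, so the exact test cannot give a p below 0.00794, and Slc7a11 was too low to test outside hypothalamus.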
